A study of Mus musculus with 2 samples.

Results

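The 7 genes Casq1, Casq2, Srl, Hrc, Trdn, Asph and Sypl2 encode proteins that store calcium in the sarcoplasmic reticulum of muscle, hold that store in place or lie in membranes beside it. They were chosen by name, as every transcript model that the authors' tables assign to one of these gene symbols, and they are 7 of 15747 annotated genes with at least 1 read. The reads came from long-read RNA sequencing of total RNA (2 µg) from gastrocnemius, the large calf muscle, of B6CASTF1/J females, F1 hybrids of the strains C57BL/6 and CAST, aged 14 days. The series has 1 group of 2 libraries, biological replicates 1 and 2, so no conditions are compared. For replicate 1 the sample label speaks of 3 females, for replicate 2 of a female with no number, and the donor identifier is shared. Nothing used here states whether animals were pooled.

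The sarcoplasmic reticulum is the internal calcium store of a muscle fibre. Calsequestrin, a protein rich in acidic residues, binds calcium loosely and in large amounts in its junctional part, where triadin and junctin anchor it to the ryanodine receptor, the release channel. Sarcalumenin and the histidine-rich calcium-binding protein also lie in the lumen and bind calcium. Not all 7 products are soluble lumen proteins: triadin (Trdn), junctin (a product of Asph) and mitsugumin 29 (Sypl2) span membranes of the triad, the junction of the reticulum with the transverse tubule.

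The coding sequences of Casq1, Casq2, Hrc and Srl were rich in acidic codons, and that of Sypl2 was not. Codons for aspartate or glutamate made up 28.4% of Casq1, 26.7% of Casq2, 30.8% of Hrc and 19.5% of Srl, against a median of 11.2% over 20906 coding genes of the GENCODE M21 annotation. The share was 18.9% in Trdn and 16.9% in the junctin-type model Asph-206, and in Sypl2 it was 8.71%, below the median gene. Hrc also had 11.1% histidine codons, more than 99.9% of genes, and Trdn had 21.5% lysine codons. The stretches richest in these codons are shown because they hold the acidic or basic runs of each protein. They were read from the M21 transcripts (mm10). Capitals mark acidic codons in Casq1 (chr1:172210348-172210407, minus strand), Casq2 (chr3:102145299-102145358, plus strand) and Srl (chr16:4496664-4496723, minus strand), acidic and histidine codons in Hrc (chr7:45336267-45336356, plus strand) and lysine codons in Trdn (chr10:33257077-33257136, plus strand).
Casq1: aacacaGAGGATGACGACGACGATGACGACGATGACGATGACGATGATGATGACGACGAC
Casq2: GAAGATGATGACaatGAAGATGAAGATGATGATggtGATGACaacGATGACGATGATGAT
Srl: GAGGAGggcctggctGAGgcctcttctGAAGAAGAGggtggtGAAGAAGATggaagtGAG
Hrc: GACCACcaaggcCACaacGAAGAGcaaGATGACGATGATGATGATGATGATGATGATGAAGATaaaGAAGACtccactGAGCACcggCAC
Trdn: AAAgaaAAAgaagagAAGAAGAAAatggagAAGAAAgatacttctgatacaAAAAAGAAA
In these stretches 18 of 20 codons of Casq1 and 17 of 20 of Casq2 were acidic, and 10 of 20 of Srl. The codon shares are of annotated models, and most reads of 3 genes did not cover the exon of the printed stretch. For Srl this is exon 2, covered by 28.6% of its reads in replicate 1 and 13.3% in replicate 2. For Trdn it is exon 11 (27.7% and 10.3%) and for Hrc exon 1 (6.94% and 2.41%).

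Replicate 1 held 1316937 reads and replicate 2 held 1204188, of which 1248854 and 1106450 belonged to annotated genes. Levels are in CPM: a gene's reads relative to these annotated-gene totals. In long-read counting a read stands for a transcript, so the CPM was not divided by length, although long and short transcripts were not sampled alike. Reads fell on models of 2347 bases on average in replicate 1 and of 1545 bases in replicate 2. The log2 ratio of replicate 1 over replicate 2 had a median of -1.89 in genes under 500 bases and of 0.70 in genes of 4000 to 5000 bases. Cardiac markers were nearly absent: Nppa, Nppb, Ryr2 and Myl7 were at 0 reads in both libraries, and the 6 cardiac genes together had 9 and 3 reads. P-values and intervals come from reads of these libraries. They cover counting error only, and reads that carry no molecular identifier cannot be counted as independent molecules. Only the replicate numbers say that the libraries came from separate animals.

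The 7 genes together took 21651 reads (1.73%) in replicate 1 and 19416 (1.75%) in replicate 2. Casq1, the calsequestrin of fast muscle, led in both libraries, with 11984 and 7433 reads. Its level was 9596 and 6718 CPM, a mean of 8157 ± 2035 (SD, n = 2), which placed it at rank 11 and rank 14 among all genes. Casq2, the calsequestrin of heart and slow fibres, was the lowest of the 7, with 154 and 76 reads, or 123 and 68.7 CPM (mean 96.0 ± 38.6, SD, n = 2). Casq1 therefore made up 98.7% (Wilson 95% interval 98.5 to 98.9) of calsequestrin reads in replicate 1 and 99.0% (98.7 to 99.2) in replicate 2. The ratio of the libraries was 0.23 for Casq1 and 0.56 for Casq2 on the log2 scale, both under the limit of 1 for a call.

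Sarcalumenin (Srl) had 5233 reads in replicate 1 and 1695 in replicate 2, or 4190 and 1532 CPM. Hrc went the other way, with 922 reads in replicate 1 and 6236 in replicate 2, or 738 and 5636 CPM. Trdn had 981 and 2182 reads, or 786 and 1972 CPM. The libraries thus gave these 3 genes unlike levels, Srl being high in replicate 1 and Hrc and Trdn in replicate 2. Asph, whose short products include junctin, had 439 and 353 reads (352 and 319 CPM, mean 335 ± 23.0, SD, n = 2). Sypl2 had 1938 and 1441 reads (1552 and 1302 CPM, mean 1427 ± 176, SD, n = 2). In order of level, Casq1 was first, Asph sixth and Casq2 last in both libraries. Between them the order of Srl, Sypl2, Trdn and Hrc in replicate 1 became Hrc, Trdn, Srl and Sypl2 in replicate 2. Only Srl and Sypl2 kept their order, and their ranges overlapped (Srl at 1532 CPM in replicate 2, Sypl2 at 1552 in replicate 1). These neighbours thus do not differ beyond their spread.

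**Figure D1:**
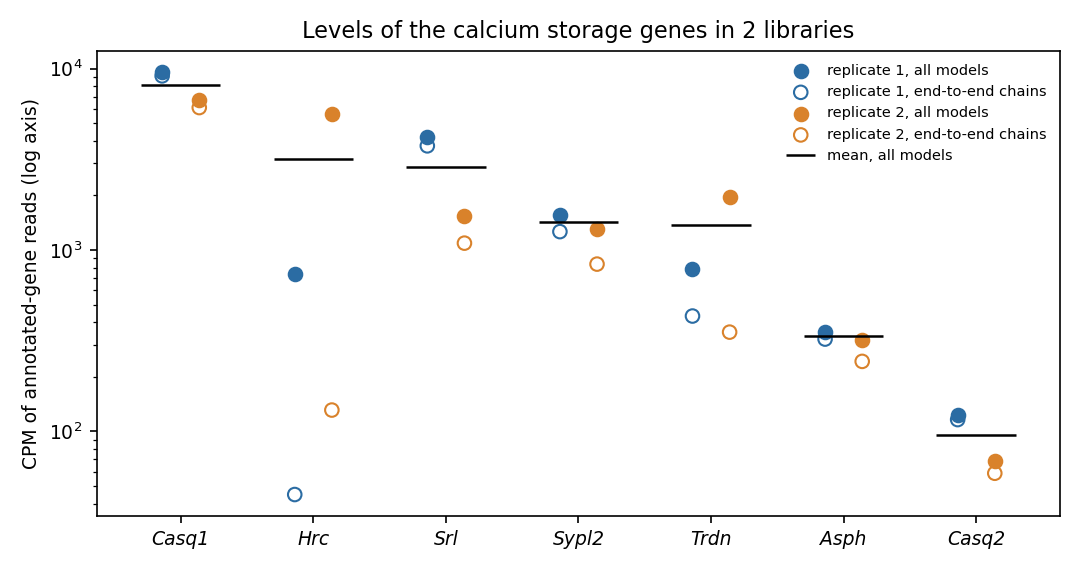
Level of each gene in CPM of annotated-gene reads on a log axis, with filled points for all models, open points for end-to-end chains (from a first splice donor to a last splice acceptor of annotated coding models) and a line at the mean of the 2 libraries. The filled points of Hrc are at 738 and 5636 CPM, while its open points are at 44.8 and 131 CPM.

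The question put to the libraries was which members differed in reads. A call needed an adjusted p under 0.05 by Fisher's exact test and a log2 ratio of at least 1. Srl was called higher in replicate 1, as were 8.83% of the 8973 genes tested, and Hrc and Trdn were called higher in replicate 2, as were 11.4%, so 3 of 7 members were called beside 20.2% of all genes. The log2 ratio was 1.17 for Srl, -3.22 for Hrc and -1.61 for Trdn, against a median of -0.01 over all genes tested. By an exact binomial test at the scaled ratio, an alternative chosen after the data were seen, the adjusted p was 8.23e-205 for Srl and 1.21e-201 for Trdn, and the 3 members were called beside 6.34% (higher in replicate 1), 13.4% (higher in replicate 2) and 19.8% (either) of genes. For the other 4 genes the log2 ratio lay between -0.14 (Asph) and 0.56 (Casq2), and Sypl2 was at -0.03. The ratios are scaled by TMM factors, which lower them by 0.28 against the ratio of the CPM, so those of Asph and Sypl2 are negative although their CPM is higher in replicate 1.

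Of these 3 calls, those of Srl and Trdn depended on how transcript length was treated, and that of Hrc did not. Averaged over its reads, model length was 321 bases for Hrc, 1154 for Trdn and 6287 for Srl. With the trend of the log2 ratio on this length removed, Srl was at 0.51 and Trdn at -0.88, neither called. Hrc was still called, at -1.14, beside 2.40% of genes higher in replicate 1, 4.22% higher in replicate 2 and 6.62% in either direction. The leading models of Hrc and Trdn cover part of the annotated exons, so their length per read differs from the annotated length. The trend on annotated length was therefore removed as well, an alternative added after the data were seen. Hrc (-3.16) and Trdn (-1.96) were then called higher in replicate 2 and Srl (0.77) was not called, with 3.90% and 7.59% of genes called higher in replicates 1 and 2 and 11.5% in all. Counted in full splice reads, the classes described next, Hrc alone of the 7 was called (log2 ratio -1.96), beside 11.4% of genes higher in replicate 1, 10.9% higher in replicate 2 and 22.3% in either direction. Cell type markers were read by the first test, Fisher's on all models, which called 8.83% of genes higher in replicate 1 and 11.4% in replicate 2. Of the slow fibre markers 5 of 6 were called higher in replicate 2, as Hrc and Trdn were, with summed levels of 2259 and 6740 CPM. Myh7, the other of the 6, was not called (log2 ratio 0.27). Of the Schwann cell markers 4 of 5 were called higher there (575 and 2457 CPM). Of the fast fibre markers 1 of 6 was called higher in replicate 1 and 3 in replicate 2 (80086 and 107258 CPM). Other lists leaned to replicate 1, with 2 of 4 endothelial, 1 of 5 fibroblast and 1 of 3 tested blood markers called higher there. None of these was called higher in replicate 2. Of 5 smooth muscle markers, 1 was called higher in replicate 1 and 2 in replicate 2. With the length trend removed, 1 slow fibre, 3 Schwann cell and 0 fast fibre markers were called higher in replicate 2. In replicate 1, all 3 tested blood markers and 1 fast fibre marker were then called higher, and smooth muscle had 1 in each direction. Of all genes, 2.40% were then called higher in replicate 1 and 4.22% in replicate 2. The part of these cell types in the result was not tested. In tissue, fewer cells of a type and less RNA per cell cannot be told apart.

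**Figure D2:**
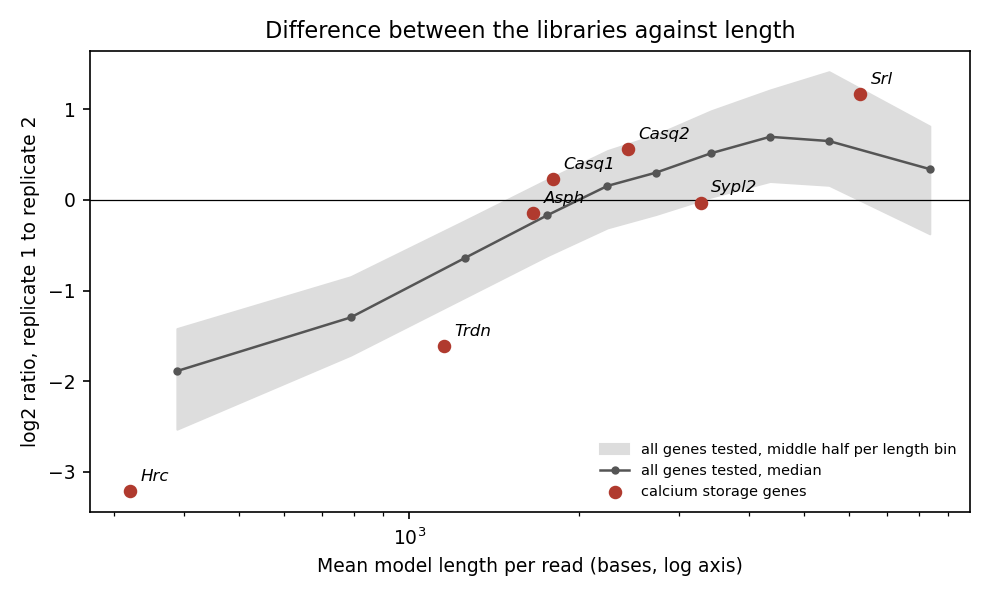
log2 ratio of replicate 1 to replicate 2 against the mean model length per read (log axis), with the median (line) and middle range from the 25th to the 75th percentile (grey) of all genes tested per length bin, and the 7 genes as points. Trdn at -1.61 lies under the grey band, and Srl at 1.17 lies in it. Hrc at -3.22 (321 bases) lies left of where the band starts, at 388 bases, and below the 25th percentile there (-2.53).

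The authors' tables class every model. A Known model repeats the introns of an annotated one, NIC and NNC models are other full chains (from known splice sites, or with at least 1 other site), ISM is the class for part of an annotated chain, and Genomic that for models that overlap the gene without its splicing. The classes are the authors' and do not always hold against M21: the leading Srl chain, ISM in replicate 1, is part of no M21 chain. Known, NIC and NNC reads are called full splice reads here. The 2 calsequestrins were mostly full: 97.9% of Casq1 reads in replicate 1 and 94.0% in replicate 2, and 94.8% and 85.5% of Casq2 reads. For Asph the share was 94.5% and 76.5%, and for Sypl2 81.7% and 64.7%. Hrc lay far below, at 7.27% and 2.76%, and Trdn at 23.1% and 11.3%, against medians of 93.3% and 87.0% over 3891 genes.

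By Fisher's exact test with a difference of at least 10 percentage points, the full splice share of Trdn (adjusted p = 3.27e-15), Asph (3.20e-12) and Sypl2 (6.50e-27) was called higher in replicate 1, as was that of 18.4% of genes, with 18.6% called in either direction. Srl was called in the other direction, with 35.4% in replicate 1 and 71.9% in replicate 2, as were only 0.231% of genes. That call rests on a class name. The chain with most Srl reads was classed ISM in replicate 1 and NIC in replicate 2, although its introns were the same in both. With reads sorted by their own introns, so that a chain had to run from a first donor to a last acceptor of annotated coding models, 89.5% of Srl reads in replicate 1 and 71.2% in replicate 2 were end-to-end, and Srl was called higher in replicate 1. By this measure 18.4% of genes were higher in replicate 1, 0.18% in replicate 2 and 18.6% in either. The measure was also added after the data were seen. The end-to-end share of Trdn was 55.0% and 17.9%, and that of Hrc was 6.07% and 2.33%. Without the Genomic models in the denominator the difference of Sypl2 was -1.69 points and that of Asph 0.45 points, and neither was called.

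**Figure D3:**
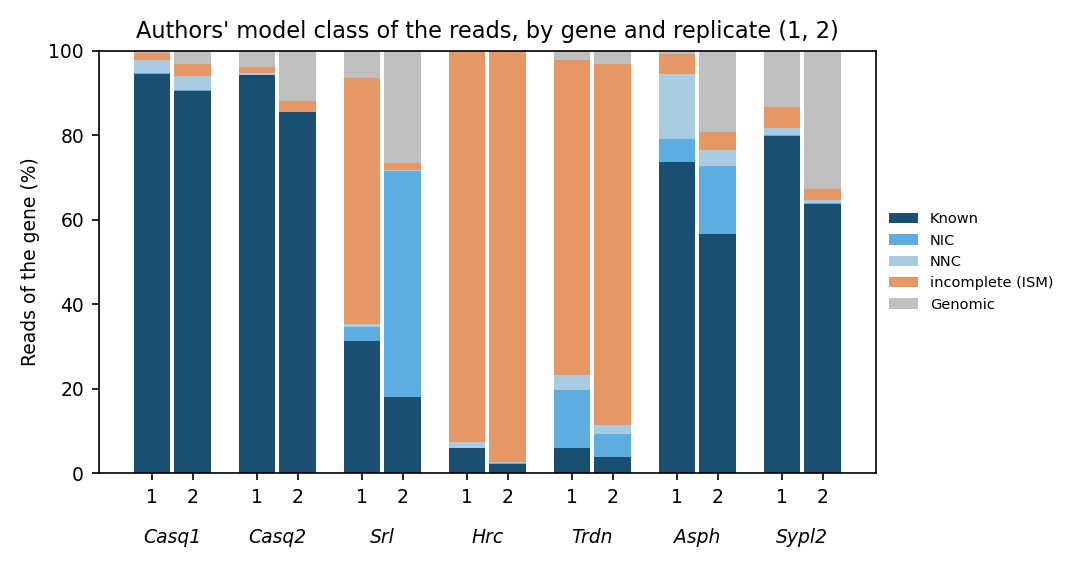
Share of each gene's reads in the authors' model classes, as stacked bars for replicates 1 and 2. ISM reads make up 92.5% and 97.2% of Hrc, and the leading colour of Srl goes from ISM in replicate 1 to NIC in replicate 2.

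Casq1 was read almost as a single form. Its 11-exon reference model (chr1:172209894-172219868, minus strand, 1847 bases) held 94.4% of its reads in replicate 1 and 90.2% in replicate 2. A 12-exon chain with an unannotated junction inside exon 1 had 276 and 196 reads. Of the reads that reached exon 1, 2.37% and 2.85% carried this junction, which removes 181 bases (chr1:172219657-172219837) with GT and AG at its ends. The removed bases include the first 34 coding bases and so the annotated start codon. The 11-exon reference model of Casq2 (chr3:102086415-102146514, plus strand) held 93.5% and 85.5% of Casq2 reads, and a single-exon model held 3.90% and 11.8%. Exons 2 to 10 of Casq1 and Casq2 have the same lengths one by one, 780 bases in all, and 68.5% of these bases are identical. Identity per exon ran from 56.5% in exon 7 to 77.2% in exon 9.

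Srl (chr16:4480216-4541816, minus strand) carried the one exon among the 7 genes whose use was called different between the libraries. Exon 2 of Srl-201, 1311 bases long, codes for an acidic stretch with 25.5% acidic codons against 13.9% in the rest of the model. It was included in 1395 of 4712 informative reads of replicate 1 (29.6%, Wilson 95% interval 28.3 to 30.9) and in 211 of 1212 of replicate 2 (17.4%, 15.4 to 19.6). The difference of 12.2 percentage points had an adjusted p of 1.01e-14 by Fisher's exact test. Of 23571 internal exons tested, 0.00424% were called higher in replicate 1 and the same share in replicate 2, 0.00849% in all. Over all models, most informative Srl reads skipped the long exon in both libraries. In full splice reads alone the inclusion was 76.4% in replicate 1 and 17.4% in replicate 2, a difference of 59.0 points, since the leading chain, which skips the exon, has the class ISM in replicate 1 and is then left out there. Leading models with and without the exon also differ in length, at 5000 bases for Srl-201 and 7647 for the leading chain in replicate 1, and the part of length in the difference was not tested.

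A second choice, 3 bases at the start of exon 3, had overlapping intervals in the libraries when all models were counted. The 3 bases were kept in 89.2% of reads in replicate 1 and in 88.5% in replicate 2, the interval of the latter being 86.6 to 90.2. In full splice reads alone, which lack the leading chain in replicate 1, they were kept in 72.1% and 88.4%, and among those reads without the long exon in 10.1% and 88.3%. The junctions are shown to place the choice, with the 3 bases in capitals. Those with the long exon span chr16:4493866-4496416 and those without it span chr16:4493866-4523004 (mm10, minus strand).
long exon in, 3 bases kept: ttgctcaatgggAAGaggtggaggatg
long exon in, 3 bases left out: ttgctcaatgggaggtggaggatg
long exon skipped, 3 bases kept: caggacaagcagAAGaggtggaggatg
long exon skipped, 3 bases left out: caggacaagcagaggtggaggatg
In the order printed, the forms had 28.2%, 2.83%, 61.0% and 7.99% of informative reads in replicate 1. In replicate 2 they had 16.4%, 1.96%, 72.1% and 9.54%. The 3 bases were kept in 90.9% of reads with the long exon and 88.4% of reads without it in replicate 1, and in 89.3% and 88.3% in replicate 2.

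The chain with most Srl reads had 6 exons, skipped the long exon, kept the 3 bases and ran from chr16:4476258 to 4523063. It held 2886 reads (55.2%) in replicate 1 and 876 (51.7%) in replicate 2. Its last exon passed the annotated 3′ end of the gene at 4480216. Models that reached more than 100 bases past this end held 65.2% and 73.3% of all Srl reads. These ends are those of models. A chain of 7 exons, with the same introns in both libraries, was 8235 bases long in replicate 1 and 4997 in replicate 2. Where single reads ended cannot be seen from the models. Srl-201 held 1254 and 187 reads, and Srl-202 held 380 and 116. Of the single-exon models near the 3′ end, the largest of replicate 1 held 318 reads (6.08%) and that of replicate 2 held 366 (21.6%).

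**Figure D4:**
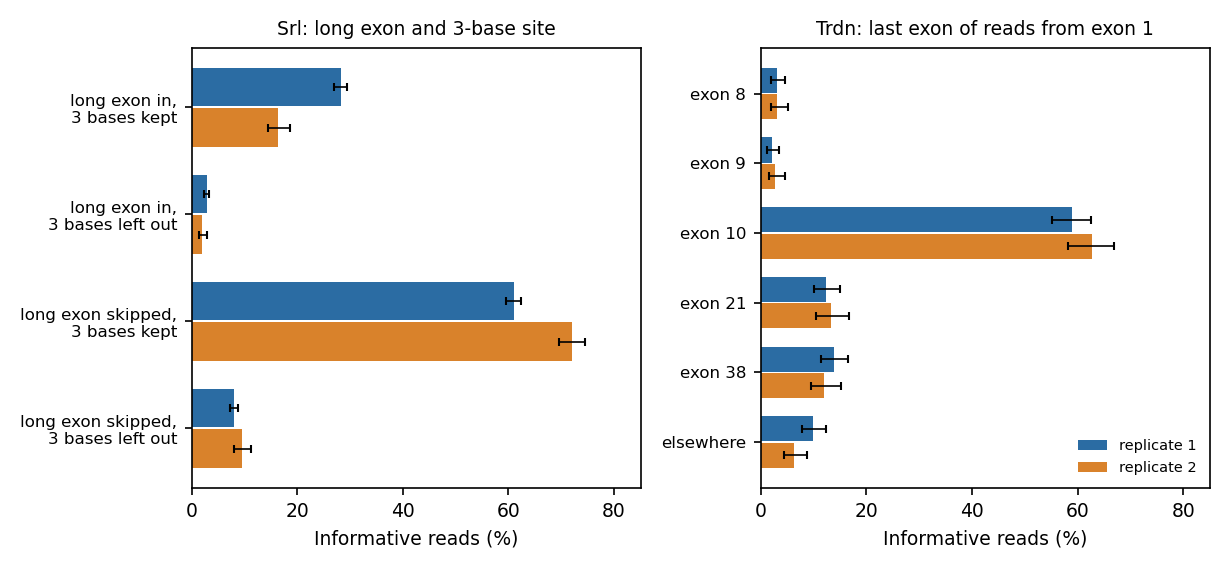
Left, shares of informative Srl reads by use of the long exon and of the 3-base site. Right, shares of Trdn reads that carry the first junction by the exon in which they end, with bars for the 2 libraries and 95% Wilson intervals. The form without the long exon and with the 3 bases leads at 61.0% and 72.1%, and exon 10 leads the Trdn ends at 58.9% and 62.7%.

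Hrc (chr7:45335290-45338974, plus strand) was read almost only from its 3′ part. Its first exon has 2085 of the 2411 bases of Hrc-201 and holds the acidic and histidine stretch shown above. That exon was covered by 64 of 922 reads in replicate 1 (6.94%, Wilson 95% interval 5.47 to 8.77) and by 150 of 6236 in replicate 2 (2.41%, 2.05 to 2.82). Exon 3 was covered by 94.4% and 99.8%. A chain of exons 3 to 6, 255 bases long, held 787 reads in replicate 1 and 5844 in replicate 2. The full Hrc-201 chain held 55 and 142. Counted in end-to-end chains, Hrc was at 44.8 and 131 CPM, and its log2 ratio was -2.05, still called higher in replicate 2 (21.4% of genes were called in either direction), beside 12.4% of genes higher in replicate 1 and 8.96% higher in replicate 2. Exon 3 (chr7:45337887-45337955, plus strand), in which 87.0% and 97.4% of Hrc reads start, is printed as the place where they begin.
Hrc exon 3: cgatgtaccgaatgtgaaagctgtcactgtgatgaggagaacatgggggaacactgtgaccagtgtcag
The start of the leading chain coincides with the annotated start of exon 3. A chain of 3 exons was 186 bases long in replicate 1 (45 reads), where it starts in exon 4. In replicate 2 its model was 385 bases long (171 reads) and starts at 45337955, the last base of exon 3. Those 171 reads count as starting in and covering exon 3, so part of the difference between the libraries lies in this model start. Whether single reads began elsewhere in the exon cannot be seen in the model tables.

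**Figure D5:**
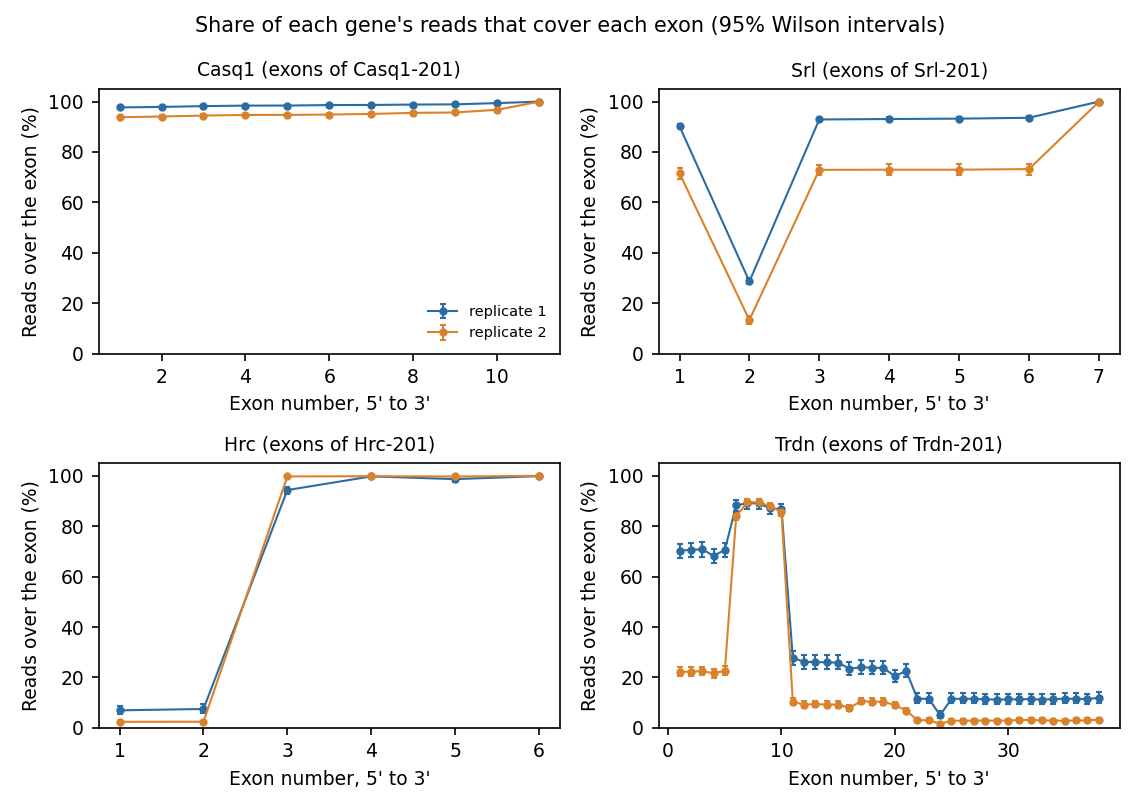
Share of reads over each exon of the reference model, 5′ to 3′, for Casq1, Srl, Hrc and Trdn, with 95% Wilson intervals. Casq1 stays above 90%, Srl drops at exon 2, Hrc climbs from exon 2 to exon 3, and Trdn is highest from exon 6 to exon 10.

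Trdn (chr10:33080554-33476709, plus strand) has 38 exons in Trdn-201, and few reads spanned them. In replicate 1, 70.4% of the 981 reads reached exon 1, and 19.3% started in exon 6. In replicate 2 the order was reversed, with 22.4% of the 2182 reads at exon 1 and 61.5% starting in exon 6. A chain of exons 6 to 10 held 155 and 1157 reads, and a chain of exons 1 to 10 held 371 and 275. A chain of exons 7 to 10 held 10 and 112. Counted in end-to-end chains, Trdn was at 432 and 352 CPM and was not called. Its log2 ratio was -0.22, against the direction of the CPM, because the ratio is taken within end-to-end reads with TMM factors of 1.18 and 0.847.

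Among Trdn reads that carried the first junction, the intervals of the 3′ ends overlapped between the libraries when all models were counted. Exon 10 was the last exon in 406 of 689 reads of replicate 1 (58.9%, Wilson 95% interval 55.2 to 62.5) and in 302 of 482 of replicate 2 (62.7%, 58.3 to 66.9). Exon 38, the last of the longest form, ended 95 and 58 of these reads (13.8% in replicate 1), and exon 21, extended past its annotated end, ended 12.3% and 13.3%. In full splice reads alone, which leave out the ISM chain of exons 1 to 10, exon 10 ended 16.2% and 15.9%, exon 38 ended 46.6% and 34.1%, and exon 21 ended 13.2% (9.26 to 18.6) and 28.8% (22.5 to 36.0), intervals that do not overlap. With all models, exon 8 ended 3.05% and 3.11% and exon 9 ended 2.03% and 2.70%. The annotated models that end in exon 10, Trdn-206 and Trdn-207, lack exon 9. Exon 9 was present in 98.2% and 97.2% of reads that could show it. Both exons are shown, exon 9 at chr10:33200163-33200222 and exon 10 at chr10:33233855-33233926, since the commonest chain joins them.
Trdn exon 9: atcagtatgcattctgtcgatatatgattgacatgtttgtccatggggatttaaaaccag
Trdn exon 10: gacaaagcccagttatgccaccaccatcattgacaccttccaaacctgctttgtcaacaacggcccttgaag
After exon 10, Trdn-207 goes on for 66 bases, with 4 A among the first 20. Of the later exons, one of 48 bases (chr10:33343076-33343123) was included in 85.1% and 83.2% of informative reads and one of 30 bases (chr10:33433701-33433730) in 42.9% (Wilson 95% interval 34.1 to 52.1) and 53.2% (41.0 to 65.1). Neither was called different by Fisher's exact test.
Trdn exon of 30 bases: agccacaactaaaaaacgaagagaagtcaa

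Asph (chr4:9448069-9669344, minus strand) encodes both an aspartyl beta-hydroxylase, in its long forms, and the short proteins junctin and junctate. The reads were mostly of a short form. Asph-206, of 5 exons and 1762 bases, held 317 reads (72.2%) in replicate 1 and 188 (53.3%) in replicate 2. Its last exon ended 97.1% and 94.7% of the spliced reads, and the last exon of Asph-204 ended 2.14% and 3.16%. A single-exon model held 0 reads in replicate 1 and 56 (15.9%) in replicate 2. The last exon of Asph-202, a long hydroxylase form, was found in 0 of 421 and 0 of 285 spliced reads. The Wilson 95% upper limits were 0.904% and 1.33%, and 3 reads, which a count of 0 allows, would be 0.713% and 1.05%. Transcripts of unlike length were not sampled alike, so these limits on reads need not hold for transcripts. Of 416 and 274 reads with the first exon of Asph-206 (inner) or Asph-204 (outer), 97.6% and 95.6% used the inner one. Of all Asph reads, 92.5% and 74.5% covered that inner exon.

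Sypl2 (chr3:108211472-108226648, minus strand) was read mainly as its reference model of 6 exons and 4090 bases, with 1544 reads in replicate 1 and 914 in replicate 2. Single-exon models inside its last exon held 13.3% and 32.5% of its reads. The largest held 209 reads (10.8%) in replicate 1 and 373 (25.9%) in replicate 2, with 1 other above 5% in replicate 2 (80 reads, 5.55%). The 4 largest had 4 or 5 A in the 20 bases after their end.

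The partner genes were read beside the 7 in 3 lists. For each, the share of all genes called was 8.83% higher in replicate 1, 11.4% higher in replicate 2 and 20.2% in all. Of 18 junctional partners, 17 were tested and 0 were called in either direction by Fisher's exact test with the limit of 1 on the log2 ratio, with a median log2 ratio of 0.17 against -0.01 over all genes. Tmem38a, the trimeric cation channel TRIC-A, was the highest at 1699 ± 407 CPM (SD, n = 2). Cacna1s, the voltage sensor, was at 401 ± 164 CPM. Ryr1, the release channel, was at 354 CPM in replicate 1 and 228 CPM in replicate 2, so the reads of Casq1 outnumbered those of the channel it serves in both. Transcripts of unlike length were not sampled alike, so the ratio of these reads need not be that of the transcripts. Of 7 genes of the calcium pump list, 4 were tested. Atp2a1, the fast fibre pump, was higher in replicate 1 with 144343 and 39622 reads, while Sln (4 and 141 reads) and Mrln (56 and 152), small proteins that inhibit the pump, were higher in replicate 2. Of 15 genes of the general lumen list, 14 were tested and 1, Rcn3, was called, with 95 and 269 reads. With the length trend removed, Sln was still called (log2 ratio -4.88), while Atp2a1 (0.90), Mrln (-0.08) and Rcn3 (-0.81) were not. The general lumen genes were low beside Casq1: all 15 together had 1260 and 1163 CPM, less than Casq1, Srl or Sypl2 alone in both libraries. Together they had more than Asph or Casq2 in both, and more than Hrc or Trdn in replicate 1 only.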

How the data were processed

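Long-read RNA sequencing gave 2 libraries of 1 group, from separate samples of the labels. Raw read counts per transcript model and the exons of each model were deposited by the authors, per the file headers. The notes beside the files name mm10 and GENCODE M21, and the attributes name TALON, which assigns long reads to models. Neither its version nor an aligner or platform is named in those files or in the labels.

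The counts of all models of a gene were summed. Spike-ins (3.60% and 3.45% of reads) and unannotated loci were left out of totals and tests. A single read was worth 0.801 and 0.904 CPM. Models were matched between libraries by their introns, since the class of 1 chain can differ. With 1 group of 2 libraries no test between conditions was possible, and the spread between the libraries is the difference examined. Genes with at least 10 reads were compared by two-sided Fisher's exact test with Benjamini-Hochberg adjustment and a log2 ratio with TMM factors (edgeR 4.0.16) and a prior count of 0.5. Fisher's test compares unscaled shares while the ratio is scaled, a shift of 0.28 on the log2 scale when all models are counted. Its p therefore does not belong to the printed ratio: simulated data with a shifted composition gave false calls, and p-values of gene ratios are from an exact binomial test at the scaled ratio, added after the data were seen. Of 1813 calls by the first test, 1590 were shared by the second. Gene calls on full splice, known and end-to-end reads used Fisher's test alone, with TMM factors of their own (1.18 and 0.847 for end-to-end reads). Shares were tested with at least 20 reads in each library and called at 10 percentage points.

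Alternatives were other scalings (DESeq2 1.42.0 size factors, totals, spike-ins), read minimums, model classes, prior counts, length trends (lowess) and each library alone. Named were all 7 genes, chains with 5% of a gene's reads, exons at 10 to 90% inclusion, and list genes by level or call; 1 alternative exon and the chain that holds it are not reported here. The 7 genes, the lists and the tests were chosen with earlier results of these data known. Scripts used Python 3.11.15 and scipy 1.17.1.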

Additional observations from a re-analysis of the deposited data

Results flagged for a closer look

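Reads of models at unassigned loci within 5000 bases of a member, which no comparison above uses, were above the 3 reads that a count of 0 allows near 4 genes. On the strand of the gene, there were 22 reads near Srl in replicate 2, and 16 near Trdn in replicate 1 and 8 in replicate 2. On the other strand, there were 29 near Srl in replicate 2, 14 and 44 near Trdn in replicates 1 and 2, 4 near Hrc in replicate 2 and 7 near Asph in replicate 2.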

How the results depend on the processing

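No paired analysis was possible because the series has a single group. Of the 7 genes, 3 were called, and 1 under full splice chains only and 1 with the length trend removed; Hrc was that gene in both. The ratio of Srl was -0.0025 under full splice chains, where its leading chain is left out of replicate 1 by its class. With end-to-end chains it was 1.27, and Srl and Hrc were the 2 members called. Over all genes, replicate 1 held 43.7% of the calls, 57.9% with totals, 57.2% with spike-ins, 32.1% with the binomial test, 30.6% with a prior count of 5 and 29.7% with a minimum of 50 reads; totals moved the median ratio to 0.27. Of 35 partner genes tested 4 were called, beside 20.2% of all genes. With totals 7 of 35 were called, beside 12.4% and 9.03% of genes higher in replicates 1 and 2. With spike-ins 7 of 35 were called, beside 12.2% and 9.15%. With full splice chains 10 of 35 were called beside 22.3% in all, and with known models 8 of 33 beside 12.4% and 10.4%. With end-to-end chains 8 of 34 were called beside 21.4% in all, and with the length trend removed 1 of 35 beside 6.62%. Full splice shares gave 4 calls beside 18.6% of genes, and 2 without Genomic models, for which the share of all genes is not given here. For Srl the difference in points was 13.3 with Known only and 18.3 with end-to-end chains, and for Sypl2 -1.69 without Genomic models. The Casq1 share ranged from 98.7% to 99.0% with either library left out. With full splice chains only, exon 10 ended 16.2% and 15.9% of Trdn reads from exon 1, since the class of its chain is ISM. Where not stated, the cause was not tested. Low read numbers limit Casq2 (76 reads in replicate 2) and the 30-base exon of Trdn (62 informative reads there).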
